A study of Homo sapiens with 12 samples.

Results

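The 10 genes described here are classical targets of the transcription factor NF-kB: the inhibitors NFKBIA and TNFAIP3, the NF-kB subunits NFKB2 and RELB, the chemokines CCL20, CXCL1, CXCL2 and CXCL8, the survival gene BIRC3 and the adhesion molecule ICAM1. They were taken by symbol from the array's probe annotation, with the probe set of highest mean standing for a gene. Of 18404 genes with a probe set of their own, 9 were among these 10; BIRC3 had none in the annotation used and was not analysed here. All 9 had a single probe set. A gene was tested when it lay above the 40th percentile of the array on 3 or more arrays. This left 13199 genes, among them 6 of the 9: NFKBIA, TNFAIP3, NFKB2, RELB, CCL20 and ICAM1. These 6 exceeded the 40th percentile on all 12 arrays, whichever the group. CXCL1 and CXCL2 did so on 0 arrays and CXCL8 on 1.

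The cells were HepG2C3A, a clonal human line from a liver tumour, kept for hepatocyte-like functions. They were grown for 96 h in a microsystem, a culture device that the labels do not describe further, or in Petri dishes, and received acetaminophen over 72 h or no drug. This gave 4 groups of 3 arrays: microsystem treated, microsystem control, Petri treated and Petri control. Acetaminophen is an analgesic that the liver converts in part to a reactive quinone imine; the sources used here give no dose, and the groups carried no other agent or allele that the labels name. Every group is the same cell line, without the macrophages and other cells that supply inflammatory ligands in liver. Nothing in the labels says that replicates were separate cultures, so the p-values rest on the spread between samples, and that spread may be technical.

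NF-kB is a family of dimers held inactive in the cytoplasm by IkB proteins. Signals from TNF, interleukin-1 or bacterial products free dimers that hold RELA, while a slower branch through the kinase MAP3K14 processes the NFKB2 product and activates RELB. In hepatocytes the pathway is known for survival, acute-phase and chemokine genes, and several of its targets shut it down again, among them NFKBIA and TNFAIP3.

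The promoters of 9 of the 10 genes were in the RefSeq table used (GRCh38.p14); RELB was not. In the 250 bases before an annotated start, all 9 held a kappaB motif on either strand, in 10 of their 11 promoters. The motifs searched were the kappaB decamer consensus, found in 5.21% of all 35116 promoters of this length, and the nonamer GGAATTTCC, found in 0.413%. The 2 overlap in NFKBIA, CXCL1 and CXCL2, and 5.39% of all promoters held at least 1 of them. The genes are listed as NF-kB targets, so a high share is part of how they were picked. The promoters of CCL20, TNFAIP3 and NFKBIA are shown because these genes were lower in the microsystem, that of ICAM1 because it rose with acetaminophen, and that of CXCL8 because it stayed dim although it holds the nonamer. Capitals mark the kappaB motifs, and each sequence is the gene's own strand.
CCL20, chr2:227813592-227813841, plus strand: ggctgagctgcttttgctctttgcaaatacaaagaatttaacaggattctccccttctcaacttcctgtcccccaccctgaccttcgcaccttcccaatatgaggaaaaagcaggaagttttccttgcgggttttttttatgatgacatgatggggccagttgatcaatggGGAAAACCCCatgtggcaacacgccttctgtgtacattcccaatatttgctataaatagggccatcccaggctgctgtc
TNFAIP3, chr6:137867009-137867258, plus strand: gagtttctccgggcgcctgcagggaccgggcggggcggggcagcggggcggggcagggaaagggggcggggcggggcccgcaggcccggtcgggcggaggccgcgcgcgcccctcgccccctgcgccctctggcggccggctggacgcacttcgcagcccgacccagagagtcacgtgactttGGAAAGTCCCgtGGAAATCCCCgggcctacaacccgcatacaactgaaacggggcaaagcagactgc
NFKBIA, chr14:35404750-35404999, minus strand: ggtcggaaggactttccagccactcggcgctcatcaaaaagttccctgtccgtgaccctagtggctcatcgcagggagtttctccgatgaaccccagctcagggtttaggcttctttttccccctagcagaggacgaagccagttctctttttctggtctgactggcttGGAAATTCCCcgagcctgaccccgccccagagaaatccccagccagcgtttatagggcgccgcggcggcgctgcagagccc
ICAM1, chr19:10270870-10271119, plus strand: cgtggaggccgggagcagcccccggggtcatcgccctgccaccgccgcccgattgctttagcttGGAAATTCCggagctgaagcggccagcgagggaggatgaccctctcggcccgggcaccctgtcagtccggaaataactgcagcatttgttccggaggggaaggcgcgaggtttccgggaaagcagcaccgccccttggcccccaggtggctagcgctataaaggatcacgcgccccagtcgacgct
CXCL8, chr4:73740319-73740568, plus strand: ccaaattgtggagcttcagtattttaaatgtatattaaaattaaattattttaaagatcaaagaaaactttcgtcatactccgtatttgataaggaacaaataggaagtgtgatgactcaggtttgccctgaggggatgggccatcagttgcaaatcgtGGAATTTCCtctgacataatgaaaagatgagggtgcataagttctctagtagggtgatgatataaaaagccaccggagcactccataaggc

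The motif began 79 bases before the start in CCL20, 81 in NFKBIA, 91 in CXCL8 and 186 in ICAM1. In CXCL8 and ICAM1 only the nonamer matched. TNFAIP3 held 2 separate matches, beginning 67 and 55 bases before the start. In CXCL1 and CXCL2, a pair of closely related genes on chromosome 4, the decamer and the nonamer overlapped within 80 bases of the start. A match is a description of the letters in this window, and binding was not measured. The motif stood in front of genes that were lower in the microsystem and of genes that were not.

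**Figure D1:**
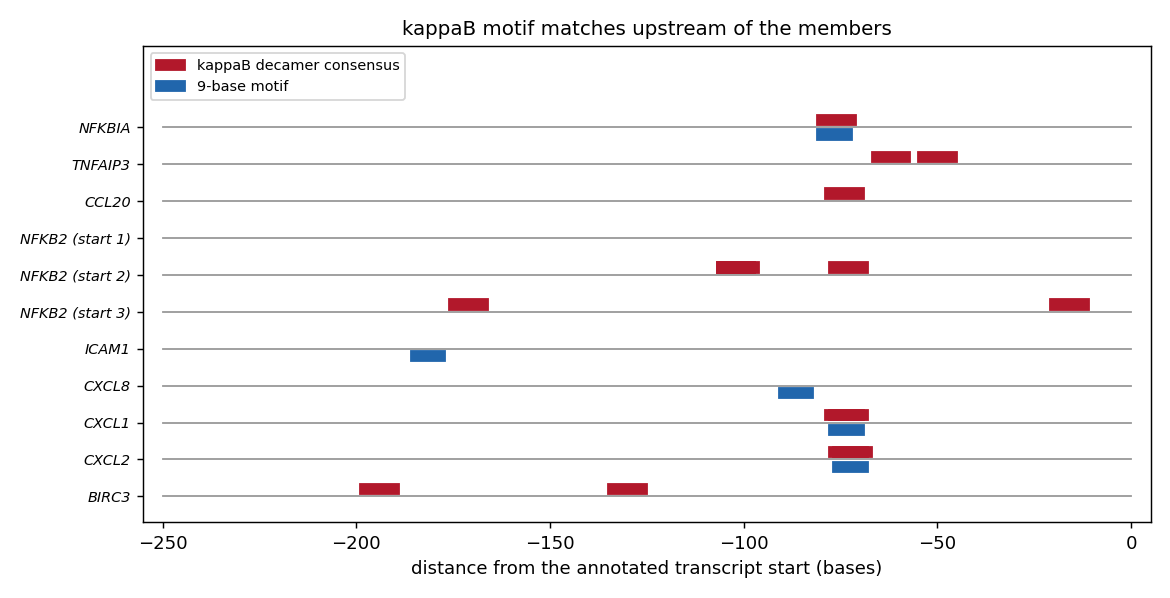
Position of kappaB motif matches (red, decamer consensus; blue, 9-base motif) in the 250 bases before each annotated transcript start, which lies at 0 on the x axis. Each line is a promoter; NFKB2 has 3 annotated starts, the first without a match.

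In the microsystem, compared with Petri dishes, TNFAIP3, CCL20, NFKBIA and RELB were lower both with and without acetaminophen, while NFKB2 and ICAM1 did not pass the test. Of all genes 18.9% fell between cultures among treated cells and 18.3% among controls. RELB lost both calls, and NFKBIA its call in treated cells, without some single arrays. With acetaminophen 1 of the 6 tested genes passed, ICAM1, which rose in Petri dishes, where 8.38% of all genes rose. That call was lost without some single arrays. The neutrophil chemokines CXCL1, CXCL2 and CXCL8 stayed dim throughout. All values below are deposited log2 intensities; differences are log2 differences from limma with their SE, and a gene is said to have risen or fallen where its adjusted p over the 13199 genes was under 0.05. For 3 arrays against 3, exact permutation reaches no p below 0.1, so it was not used.

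**Figure D2:**
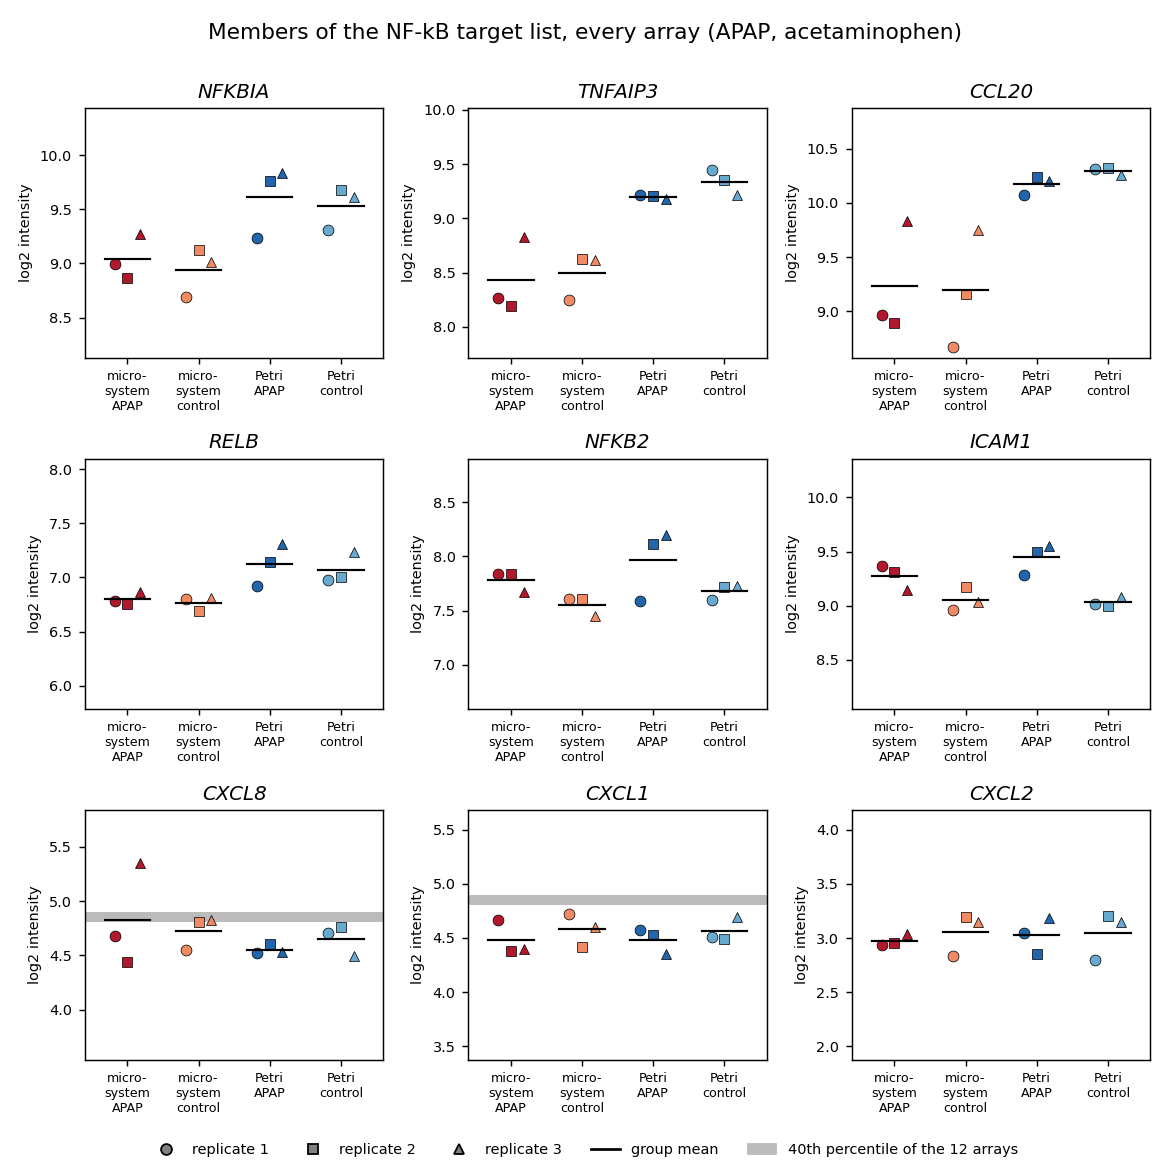
Deposited log2 intensity (y axis, 2.3 log2 units high in every panel) of the 9 genes with a probe set on each of 12 arrays, by group (x axis); symbols are replicates, bars are group means and the grey band, drawn where a panel's scale includes it, spans the arrays' 40th percentiles. TNFAIP3, CCL20 and RELB sit lower in all 6 microsystem arrays than in all 6 Petri arrays, and CXCL1 stays under the grey band. The group mean of ICAM1 is highest in Petri treated cells, where replicate 1 lies below microsystem treated replicates 1 and 2.

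TNFAIP3 encodes A20, a ubiquitin-editing enzyme that shuts off signalling from TNF and Toll-like receptors. It read 8.27, 8.19 and 8.82 in microsystem treated cells and 8.25, 8.62 and 8.61 in microsystem control cells, against 9.22, 9.20 and 9.18 in Petri treated and 9.45, 9.35 and 9.21 in Petri control cells. No microsystem array reached any Petri array. Among controls the microsystem was lower by 0.84 (difference -0.84 ± 0.15 SE, a 1.79-fold lower level, adjusted p = 0.000459). Among treated cells the difference was -0.77 ± 0.15 (1.71-fold lower, adjusted p = 0.000976). With acetaminophen the differences were -0.07 ± 0.15 in the microsystem and -0.14 ± 0.15 in Petri dishes (adjusted p = 0.8 and 0.592).

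NFKBIA encodes IkB-alpha, the inhibitor that NF-kB itself induces and that carries it back out of the nucleus. Its values were 8.99, 8.86 and 9.27 in microsystem treated cells and 8.69, 9.12 and 9.01 in microsystem control cells. In Petri dishes they were 9.24, 9.76 and 9.83 in treated cells and 9.31, 9.68 and 9.61 in controls. The control groups did not overlap, whereas microsystem treated replicate 3 lay just above Petri treated replicate 1. NFKBIA was lower in the microsystem by 0.59 among controls (-0.59 ± 0.17, 1.51-fold, adjusted p = 0.0111) and by 0.57 among treated cells (-0.57 ± 0.17, adjusted p = 0.0149). The second call was lost without microsystem treated 2, Petri treated 2 or Petri treated 3 (adjusted p = 0.0652, 0.062 and 0.0725), with differences from -0.49 to -0.45. Acetaminophen gave 0.10 ± 0.17 in the microsystem and 0.08 ± 0.17 in Petri dishes, neither beyond its SE.

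RELB is the partner of the processed NFKB2 product in the slower branch of the pathway. It read 6.78, 6.75 and 6.86 in microsystem treated and 6.80, 6.69 and 6.81 in microsystem control cells, against 6.92, 7.14 and 7.30 in Petri treated and 6.97, 7.0 and 7.23 in Petri control cells. The microsystem arrays were all below the Petri arrays, but by a small margin. RELB was lower by 0.30 among controls (-0.30 ± 0.10, adjusted p = 0.0269) and by 0.32 among treated cells (-0.32 ± 0.10, adjusted p = 0.0218). Among controls the call was lost without microsystem control 2 (-0.26, adjusted p = 0.093) or Petri control 3 (-0.22, adjusted p = 0.123). Among treated cells it was lost without microsystem treated 1 or 2 or Petri treated 2 or 3 (adjusted p from 0.0569 to 0.111).

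NFKB2 encodes p100, both a precursor of the p52 subunit and an inhibitor of RELB. Its values were 7.84, 7.83 and 7.67 in microsystem treated and 7.61, 7.61 and 7.45 in microsystem control cells, against 7.59, 8.11 and 8.20 in Petri treated and 7.60, 7.71 and 7.73 in Petri control cells. Treated arrays were above control arrays without overlap in the microsystem, while in Petri dishes treated replicate 1 lay below all 3 controls and the other treated arrays above them. Neither treatment difference passed, at 0.23 ± 0.13 in the microsystem and 0.29 ± 0.13 in Petri dishes (adjusted p = 0.295 and 0.188). In Petri dishes the difference passed without Petri treated 1 (0.48, adjusted p = 0.00829) and with array weights (0.37, adjusted p = 0.0118). Culture differences were -0.18 ± 0.13 in treated cells and -0.13 ± 0.13 in controls, and that in treated cells passed without Petri treated 1 (-0.37, adjusted p = 0.00729).

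CCL20 encodes the ligand of CCR6, which draws dendritic cells and T helper 17 cells. It read 8.97, 8.89 and 9.84 in microsystem treated and 8.67, 9.16 and 9.75 in microsystem control cells, against 10.07, 10.23 and 10.20 in Petri treated and 10.31, 10.32 and 10.26 in Petri control cells. Every Petri array exceeded every microsystem array, and both microsystem arrays numbered 3 were the highest of their groups. CCL20 showed the largest culture difference of the 6 genes, -1.10 ± 0.25 among controls (2.15-fold lower in the microsystem, adjusted p = 0.00271) and -0.94 ± 0.25 among treated cells (1.92-fold lower, adjusted p = 0.00819). Over all genes, deviations of those arrays from their group means correlated with r = 0.60. Without both of them the differences were -1.38 and -1.24 (adjusted p = 5.22e-06 and 1.28e-05). The SD among microsystem arrays was 0.52 in treated and 0.54 in control cells, against 0.09 in Petri treated and 0.03 in Petri control cells (n = 3 each). In Petri dishes treated CCL20 lay below control CCL20 on every array, yet the difference of -0.13 ± 0.25 did not pass (adjusted p = 0.786). In the microsystem the treatment difference was 0.04 ± 0.25.

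The CXC chemokines, which recruit neutrophils through CXCR1 and CXCR2, were dim. CXCL8, or interleukin-8, read 4.68, 4.44 and 5.35 in microsystem treated and 4.55, 4.81 and 4.82 in microsystem control cells, against 4.52, 4.6 and 4.53 in Petri treated and 4.70, 4.76 and 4.49 in Petri control cells. Only microsystem treated replicate 3 exceeded the 40th percentile of its array, at percentile 47. CXCL1 lay between 4.35 and 4.72 over the 12 arrays, and CXCL2 between 2.80 and 3.20, at percentiles up to 38.2 and 18 of their arrays. For these 3 genes no signal over background was shown, and cross-hybridisation between the closely related CXCL1 and CXCL2 was not tested. Fitted without the filter, all their differences were within 0.28 on the log2 scale, the widest being that of CXCL8 between cultures in treated cells (0.27 ± 0.17, adjusted p = 0.276).

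ICAM1 encodes the surface protein to which leukocyte integrins bind. It read 9.36, 9.31 and 9.14 in microsystem treated and 8.96, 9.17 and 9.03 in microsystem control cells, against 9.29, 9.50 and 9.55 in Petri treated and 9.01, 9.0 and 9.08 in Petri control cells. In Petri dishes all treated arrays exceeded all control arrays, while in the microsystem treated replicate 3 lay just under control replicate 2. ICAM1 rose with acetaminophen in Petri dishes by 0.41 ± 0.09 (1.33-fold, 95% interval 0.21 to 0.62, adjusted p = 0.0127). The call was lost without Petri control 2, Petri treated 2 or Petri treated 3 (adjusted p = 0.0536, 0.0595 and 0.0655), with differences from 0.36 to 0.40; the description of Petri treated 3 carries an asterisk that is not explained. In the microsystem the difference was 0.22 ± 0.09 (interval 0.02 to 0.42, adjusted p = 0.158). The effects themselves, microsystem minus Petri, differed by -0.20 ± 0.13 (interval -0.48 to 0.09, adjusted p = 0.802), so a culture dependence of the ICAM1 rise was not shown. ICAM1 did not pass between cultures (-0.17 ± 0.09 in treated cells and 0.02 ± 0.09 in controls, adjusted p = 0.154 and 0.868).

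**Figure D3:**
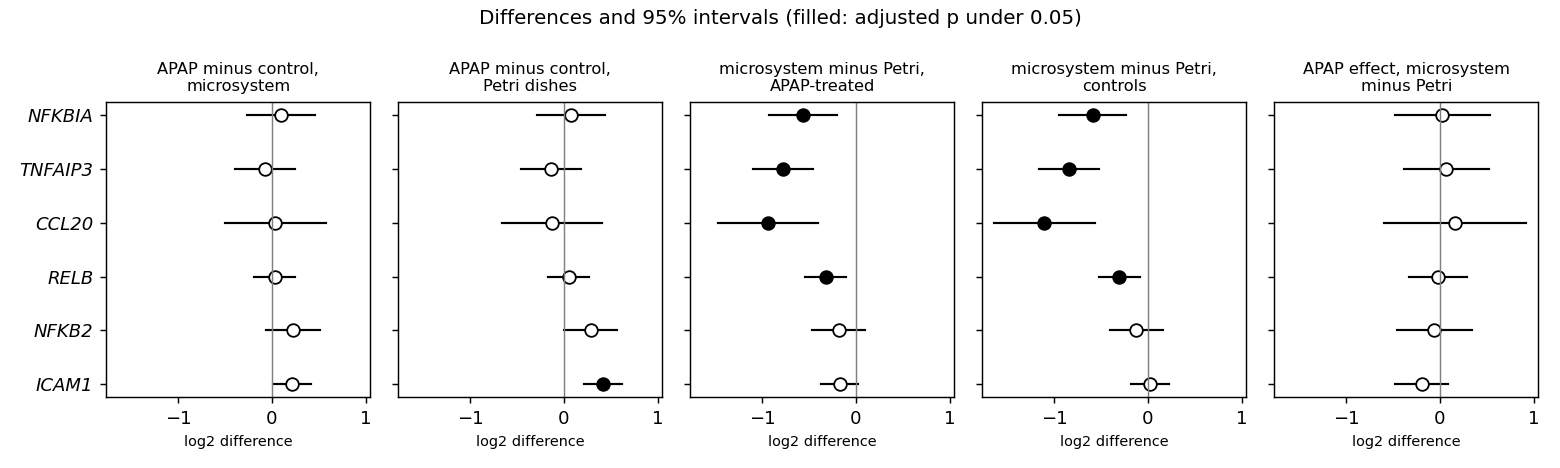
Log2 differences (x axis) of the 6 tested genes (rows) in 5 comparisons (panels), with 95% intervals of the moderated fit as lines; filled points had an adjusted p under 0.05. Filled points appear for NFKBIA, TNFAIP3, CCL20 and RELB in both culture panels and for ICAM1 in the Petri treatment panel.

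Counted together, 4 of the 6 tested genes fell and 0 rose between cultures in controls, where 18.3% of all genes fell and 26.5% rose. The same 4 fell and 0 rose in treated cells, against 18.9% and 22.6% of all genes. These comparisons share no arrays, but both used a gene's spread as estimated over all 12 arrays. At an unadjusted p under 0.05 limma counted 4 in each. The median difference of the 6 was -0.45 in controls and -0.44 in treated cells, beside 0.01 and -0.00 over all genes. These genes were chosen with earlier results of these data known. Their counts and medians beside all genes are therefore a description and no independent evidence of a fall. In controls 4 of the 6 separated the cultures without overlap and in treated cells 3, when 52.4% and 52.9% of all genes did. With acetaminophen 1 of 6 rose and 0 fell in Petri dishes, against 8.38% and 1.98% of all genes, and 2 of 6 separated the groups (34.5% of all genes). With the replicate block within each culture 2180 genes in all passed there in place of 1367, and ICAM1 was again the only one of the 6. In the microsystem limma called 0 of 6 in either direction, with 1 at an unadjusted p under 0.05, where 6.39% of all genes rose and 2.67% fell. There 1 of 6 separated the groups, beside 27.6% of all genes. The difference of the treatment effects, microsystem minus Petri, passed for 0 of the 6 in limma, with 0 at an unadjusted p under 0.05; over all genes 0.00758% and 0.0227% had a larger and a smaller effect in the microsystem. The intervals of these differences were at their widest for CCL20, from -0.59 to 0.92.

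The genes whose profile over the 12 arrays was most like that of each member were named by Pearson's r, as a description; the arrays form 4 groups, so r mainly follows the group means. For CCL20 they were the tight junction gene CLDN1 (r = 0.978), the proteoglycan gene VCAN (0.97) and the glucose transporter gene SLC2A3 (0.97). For TNFAIP3 they were the prostaglandin D2 receptor gene PTGDR2 (0.98), NCOA4 (0.971), a carrier of ferritin to lysosomes, and RNASET2 (0.969). NFKBIA went with CNOT8 (0.97), a subunit of the mRNA deadenylase complex, PSMG2 (0.966) and RBM27 (0.964). RELB went with SART1 (0.954), CCDC22 (0.951) and DDX41 (0.947), NFKB2 with HMGXB3 (0.955), IP6K1 (0.936) and BRAP (0.92), and ICAM1 with PRKCSH (0.96), PDK3 (0.95) and ADCK2 (0.948).

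Of 34 tested signalling components of the pathway, 8 rose and 6 fell in the microsystem among treated cells, and 10 rose and 8 fell among controls. These shares are near the background: of all genes 22.6% rose and 18.9% fell among treated cells, and 26.5% rose and 18.3% fell among controls. The interleukin-1 receptor chains went opposite ways: IL1R1, which binds the ligand, rose by 1.61 ± 0.25 in treated cells and 1.5 ± 0.25 in controls, while IL1RAP, its signalling partner, changed by -1.57 ± 0.17 in treated cells and -1.68 ± 0.17 in controls. The adaptor MYD88 rose by 0.81 ± 0.10 in treated cells and 0.67 ± 0.10 in controls. IKBKG, a regulatory subunit of the IkB kinase that has a near-identical pseudogene and is uncertain for that reason, rose by 0.83 ± 0.12 in treated cells and 0.90 ± 0.12 in controls. TNIP1, which encodes a partner of A20, fell with TNFAIP3, by 0.80 ± 0.10 in treated cells and 0.88 ± 0.10 in controls. The transactivating subunit gene RELA did not pass (-0.18 ± 0.09 in treated cells and -0.01 ± 0.09 in controls). The calls of IL1R1, IL1RAP, MYD88, IKBKG and TNIP1 held in both culture comparisons without any single array (adjusted p up to 0.00216).

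**Figure D4:**
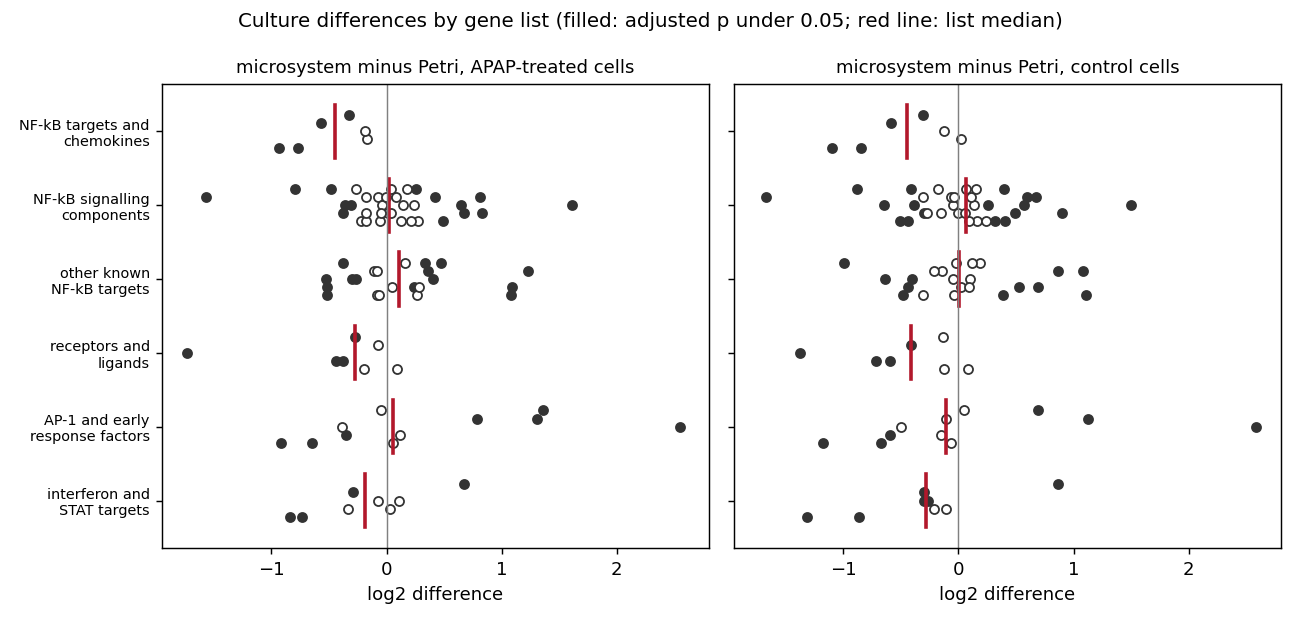
Log2 difference (x axis) between microsystem and Petri dishes for each tested gene of 6 lists (rows), in acetaminophen-treated cells (left) and controls (right); filled points had an adjusted p under 0.05 and red lines are list medians. The chemokine and NF-kB target row has its median at -0.44 and -0.45, while the rows of other known targets and of signalling components spread to both sides of 0. Medians are also below 0 for receptors and ligands (-0.27 and -0.41) and for interferon and STAT targets (-0.18 and -0.28). The AP-1 row has 0.05 and -0.11.

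Of 22 tested other known NF-kB targets, 8 rose and 6 fell in the microsystem among treated cells and 6 rose and 5 fell among controls. Those counts stand beside 22.6% and 18.9% of all genes among treated cells and 26.5% and 18.3% among controls, and the counts in controls are near that background. The cytokine gene LIF rose by 1.23 ± 0.14 in treated cells and 0.86 ± 0.14 in controls. The transcription factor gene IRF1 rose by 1.09 ± 0.17 in treated cells and 0.69 ± 0.17 in controls, and the urokinase gene PLAU by 1.09 ± 0.33 in treated cells and 1.11 ± 0.33 in controls. PLAU lost both calls without some single arrays (adjusted p up to 0.0808 in treated cells and 0.0627 in controls). The lipocalin gene LCN2 fell by 0.53 ± 0.14 in treated cells and 0.64 ± 0.14 in controls. Among controls TAP1, which pumps peptides to class I molecules, rose by 1.08 ± 0.13, and GADD45B fell by 0.99 ± 0.14. In treated cells their differences were 0.36 ± 0.13 and -0.38 ± 0.14 (adjusted p = 0.0416 and 0.0411). Both calls in treated cells were lost without some single arrays (adjusted p up to 0.183 and 0.149). The list held genes of both directions.

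With acetaminophen 2 of the 22 other targets rose and 1 fell in Petri dishes, near the 8.38% and 1.98% of all genes, and 1 rose and 0 fell in the microsystem, where 6.39% and 2.67% of all genes did. In Petri dishes TAP1 rose by 1.16 ± 0.13 (adjusted p = 0.000193) and the macrophage growth factor gene CSF1 by 0.43 ± 0.12, while the mitochondrial superoxide dismutase gene SOD2 fell by 0.33 ± 0.08. Without some single arrays CSF1 and SOD2 lost the call (adjusted p up to 0.124 and 0.0884). In the microsystem LIF alone of the 22 passed, with a rise of 0.75 ± 0.14 (adjusted p = 0.00694). Among the 34 components the kinase gene CHUK rose by 0.36 ± 0.08 and MYD88 fell by 0.46 ± 0.10 in Petri dishes. In the microsystem TNFRSF12A, the receptor of TWEAK, rose by 0.38 ± 0.11, and MYD88 and the kinase gene IRAK1 each fell by 0.32 (SE 0.10 and 0.08). CHUK and all 3 microsystem calls were lost without some single array (adjusted p up to 0.187).

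Of 7 tested receptors and ligands, 4 fell and 0 rose in the microsystem in each culture comparison, when 18.9% of all genes fell and 22.6% rose among treated cells, and 18.3% fell and 26.5% rose among controls. ITGB2, the integrin chain with which leukocytes hold ICAM1, fell by 1.73 ± 0.09 in treated cells and 1.38 ± 0.09 in controls, and TNFSF10, the death ligand TRAIL, by 0.44 ± 0.12 in treated cells and 0.72 ± 0.12 in controls. ITGAL fell by 0.38 ± 0.14 in treated cells and 0.60 ± 0.14 in controls, LTB by 0.27 ± 0.10 in treated cells and LTA by 0.41 ± 0.12 in controls. ITGAL and LTB lost their calls in treated cells, and LTA its call in controls, without some single arrays (adjusted p up to 0.209, 0.166 and 0.0539). With acetaminophen ITGB2 fell by 0.37 ± 0.09 in the microsystem, a call lost without microsystem treated 2, among others (adjusted p up to 0.0974). Of all genes 6.39% rose and 2.67% fell there. In Petri dishes limma called 0 of 7, with 1 at an unadjusted p under 0.05. That is near the shares of all genes there, 8.38% that rose and 1.98% that fell. CCR6, the receptor of CCL20, did not pass in any comparison.

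Early response factors often answer the same signals as NF-kB. Of 11 tested AP-1 and early response genes, 4 rose and 3 fell in the microsystem among treated cells and 3 rose and 3 fell among controls. Over all genes the shares that rose and fell were 22.6% and 18.9% among treated cells and 26.5% and 18.3% among controls. EGR1 rose by 2.55 ± 0.21 in treated cells and 2.58 ± 0.21 in controls, and FOS by 1.30 ± 0.30 in treated cells and 1.13 ± 0.30 in controls. FOSB rose by 1.36 ± 0.20 in treated cells and 0.69 ± 0.20 in controls, while ATF3 fell by 0.92 ± 0.24 in treated cells and 1.18 ± 0.24 in controls. FOSB lost its call in controls without Petri control 3 (adjusted p = 0.0559). With acetaminophen JUNB rose by 0.73 ± 0.11 and FOSL2 by 0.43 ± 0.10 in the microsystem, and JUND rose by 0.36 ± 0.11 and MYC fell by 0.48 ± 0.14 in Petri dishes. FOSL2, JUND and MYC lost these calls without some single arrays (adjusted p up to 0.0763, 0.171 and 0.135). Of 8 interferon and STAT targets, 1 rose and 3 fell in the microsystem among treated cells and 1 rose and 5 fell among controls. When arrays were left out, the falls numbered 1 to 3 among treated cells and 3 to 5 among controls. The kinase gene PIM1 fell by 0.73 ± 0.14 in treated cells and 1.32 ± 0.14 in controls, and BCL6 by 0.84 ± 0.23 in treated cells and 0.86 ± 0.23 in controls. The antiviral gene OAS1 rose by 0.67 ± 0.19 in treated cells and 0.87 ± 0.19 in controls. BCL6 lost its call in treated cells without microsystem treated 3 (adjusted p = 0.05). With acetaminophen limma called 0 of these 8 in the microsystem and 0 in Petri dishes, with 1 and 2 at an unadjusted p under 0.05.

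The array medians lay between 5.56 and 5.63, and arrays of a group correlated with r from 0.991 to 0.995. Most hepatocyte markers fitted the labelled line: 8 of 9 had a probe set (HNF4A had none), all 8 were tested, and 7 lay above the 97th percentile of every array. FGB lay lower, between percentiles 57.3 and 72.5. Between cultures ALB rose and TF fell in treated cells, and AFP and ALB rose and FGB and TF fell in controls. The 4 endothelial markers were all under the filter, and of 5 fibroblast markers 3 were tested and none passed between cultures. Over all genes 22.6% rose and 18.9% fell between cultures among treated cells, and 26.5% rose and 18.3% fell among controls. Of 7 leukocyte markers 4 were tested. In both culture comparisons CD14, CD68 and ITGB2 fell and LYZ rose, beside the falls of CCL20, TNFAIP3, NFKBIA and RELB. The mean log2 value over the 7 ranged from 6.25 to 6.35 in microsystem treated and 6.39 to 6.44 in microsystem control cells, against 6.74 to 6.79 in Petri treated and 6.80 to 6.85 in Petri control cells. PTPRC, a general leukocyte marker, and CD3E, a T cell marker, stayed at or under percentile 11.8 and 31.1 of every array. CSF1R, also untested, lay between percentiles 35.3 and 42.6. The part of these markers in the culture differences was not tested.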

How the data were processed

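Total RNA of 12 HepG2C3A samples was hybridised to 1 array each. The authors deposited a log2 value for each probe set; per the submitters' processing notes, Affymetrix Expression Console and robust multi-array average (RMA) were used. The sources used here name no version, setting or genome build. They were used without new normalization. Of 32321 probe sets, 19158 had 1 symbol in the array annotation, 1388 several and 11775 none here. Arrays carry no read depth, and 3 per group limit the precision.

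Group means were fitted with limma 3.58.1 (R 4.3.3) to the 13199 genes kept, two-sided, with p-values adjusted by Benjamini-Hochberg and 5.35 prior degrees of freedom. Promoter letters came from RefSeq and were searched with Python 3.11.15; figures used matplotlib 3.10.9. The members and lists were chosen with earlier results of these data known. All members were named. Other lists gave counts and up to 4 genes per comparison with the largest differences among those that passed. A few more were chosen after their values were seen. These were RELA and CCR6, then TNIP1, TAP1 and GADD45B in treated cells, and MYD88, IRF1 and LCN2 in controls. The fit was tested on simulated data. Alternatives were a replicate block, fewer arrays, other normalization, filters, probe set rules and variance models, and leaving out each array.

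Deviations of same-numbered arrays from their group means correlated with r of 0.48, 0.19 and 0.31 in Petri dishes. In the microsystem r was 0.11, 0.07 and 0.60, and between cultures -0.14 to 0.18. Arrays of different numbers were not compared, and the titles give only replicate numbers. Whether the numbers pair arrays was therefore not established.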

Additional observations from a re-analysis of the deposited data

How the results depend on the processing

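Among the 6 tested genes, no difference that passed changed sign under the alternatives run. For CCL20 and TNFAIP3 both culture calls held throughout, with adjusted p up to 0.0425 and 0.00625, and for NFKBIA the call in controls (up to 0.0487). The number of these genes past the threshold with acetaminophen in Petri dishes, 1, was 2 with array weights and ranged from 0 to 2 when single arrays were left out. Between cultures in treated cells it was 4, and 2 to 5 when single arrays were left out. The cause was not tested. With the replicate block, across all arrays or within each culture, the counts for the 5 comparisons stayed at 1, 0, 4, 4 and 0. The order is Petri treatment, microsystem treatment, culture in controls, culture in treated cells and difference. Blocking by replicate number changed no call of these genes. Over all genes, Petri treatment passed 1367, but 2180 with the block within each culture, 3602 with array weights and as few as 701 without Petri treated 2. Microsystem treatment passed 1196, but 2109 with that block, 446 with only the arrays compared and 460 without microsystem treated 2. The filter left 3 chemokines untested.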
